A study of Gallus gallus with 60 samples.

Results

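Hatching in the chicken was described by setting pectoral muscle of the first day after hatching (D1, 3 samples) against pectoral muscle of embryonic day 20 (E20, 3 samples), which makes 6 of the 60 small RNA samples of the series. The birds were Tibetan chickens, no treatment was given, and neither sex nor batch stands in the sample labels. The table lists 890 miRNAs (687 known, named gga-, and 203 predicted from the reads, named new-gga-miRNA-). All 513 of them (410 known, 103 predicted) that were above 0 in at least 1 of the 6 samples were tested. Levels are given in the deposited unit, called TPM by its authors, which is a read number scaled to the total of its library (RPM) with no correction for length. Differences are D1 minus E20 on the log2(TPM + 1) scale, so that a positive value is higher in D1, and the scale understates the change of low miRNAs. A miRNA was called when the unadjusted limma p was at most 0.05 and the difference was at least 2-fold, and the adjusted p (Benjamini-Hochberg, over all 513) is given beside it. The 3 samples of a stage are separate samples by their labels, but nothing says that they came from separate birds, so that p-values measure the spread between these samples.

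A miRNA is a short RNA that lowers the output of the mRNAs it pairs with. It is cut from a hairpin whose 5′ and 3′ sides can each give a mature miRNA, the 5p and the 3p arm, and usually 1 arm dominates. Skeletal muscle is known for a small set of miRNAs, the myomiRs (miR-1, miR-133, miR-206, miR-499), that follow myogenesis. The let-7 family, whose 5p arms share a seed, was first described as a timer of development in Caenorhabditis elegans, and miR-30 is a family whose 5p arms share another seed and which is abundant in many differentiated tissues.

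The library totals, recovered from the values, were 9878278 to 11757924 reads, and 3 reads, the smallest amount taken as detectable, correspond to 0.255 to 0.304 TPM. The listed miRNAs together took 294507, 528637 and 321660 TPM in D1, against 404709, 529862 and 409453 TPM in E20. These sums overlapped (exact two-sided permutation test, p = 0.5, with 0.1 the smallest p that 3 against 3 samples can give). The number of miRNAs above 0 was 368, 375 and 302 in D1, against 353, 422 and 367 in E20, which also overlapped (exact permutation p = 0.6). Muscle miRNAs were abundant in all 6 samples, and the 13 listed in this group (1 of them at 0 in all 6 samples) summed to 101143 to 188772 TPM in D1 and 190558 to 232344 TPM in E20. Those that mark erythroid cells summed to 8.94 to 15.6 TPM in D1 and 10.5 to 14.7 TPM in E20, and the 7 listed miRNAs of pluripotent cells were listed at 0 in all 6 samples.

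The library labelled D1-1 stood apart from the other 5 in its epithelial miRNAs. The epithelial miRNAs miR-141, miR-200, miR-203, miR-205 and miR-429 (9 of 9 tested) summed to 6440 TPM in D1-1, against 390 and 145 TPM in D1-2 and D1-3 and 205 to 466 TPM in E20. Most of it was gga-miR-205a, a miRNA of skin and other epithelia, with 4930, 298 and 95.0 TPM in D1 against 243, 362 and 150 TPM in E20. In earlier muscle gga-miR-205a averaged 32649 ± 7205 TPM at E9, 20838 ± 31153 at E12 and 10999 ± 5368 at E15 (SD, n = 3 each). At E18 it had 14742 TPM in 1 sample, beside 421 and 434 TPM, so that high or uneven values were not confined to D1-1. The neuronal miRNAs summed to 302, 42.4 and 26.8 TPM in D1, against 85.7, 105 and 200 TPM in E20. Among them gga-miR-9-5p had 199 TPM in D1-1 (−0.94 and not called, but −1.85 and called without D1-1). On that list 4 of the 7 were at 0 in all 6 samples. The defining one, gga-miR-124a-3p, had 5.57 TPM in D1-1, yet its difference of −0.57 (not called) put D1 below E20. Its fit without D1-1 is not given here. The part of these miRNAs in the results was not tested, and where a described miRNA was called in only 1 of the fits with and without D1-1, this is said beside it. The samples are bulk tissue, in which fewer cells of a type and less RNA per cell cannot be told apart.

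**Figure D1:**
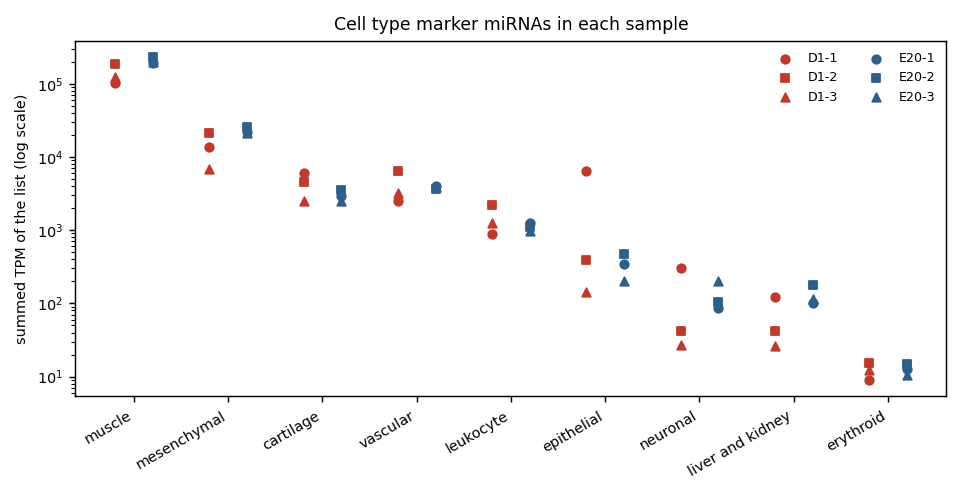
Summed TPM of cell type marker miRNAs (log scale) in each D1 sample (left of each pair) and each E20 sample (right), with the marker shape giving the replicate. The epithelial sum of D1-1 stands at 6440 TPM, above the 145 to 466 TPM of the other 5 samples, and the muscle sums of D1 lie below those of E20.

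Between D1 and E20, 26 of the 513 miRNAs were called (5.07%), of which 6 were higher in D1 (1.17%) and 20 lower (3.9%). The median difference of all 513 was −0.12, and among the 158 with a mean of at least 10 TPM, of which 16 were called (10.1%) and 26 did not overlap (16.5%), it was −0.37. At any fold, 44 miRNAs had an unadjusted limma p of at most 0.05 (8.58%), and 2 passed at an adjusted p of at most 0.05 (0.39%). The samples of both stages did not overlap for 59 miRNAs (11.5%), among them 20 of the 26 called. The split of the calls depended on the scale, since centring on the median miRNA gave 15 higher and 15 lower, and edgeR on the recovered reads gave 17 higher and 15 lower. It moved the median difference of all miRNAs from the −0.12 of the deposited values to 0.13 under centring. Leaving out D1-1 gave 39 calls (15 higher, 24 lower), 19 of them among the 26. Leaving out D1-2 gave 49 (4 higher, 45 lower), leaving out D1-3 gave 15 (6 higher, 9 lower), and leaving out E20-2 gave 16 (7 higher, 9 lower). Of the 26 called miRNAs, 9 were called whichever of the 6 samples was left out. These were gga-miR-30a-5p, gga-miR-3536 and gga-miR-365-2-5p, which were higher in D1, and gga-miR-215-5p, gga-miR-194, gga-miR-106-3p, gga-miR-1329-5p, gga-miR-1736-3p and gga-miR-6555-5p, which were lower. The other 17 were not called without 1 or more of the samples.

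**Figure D2:**
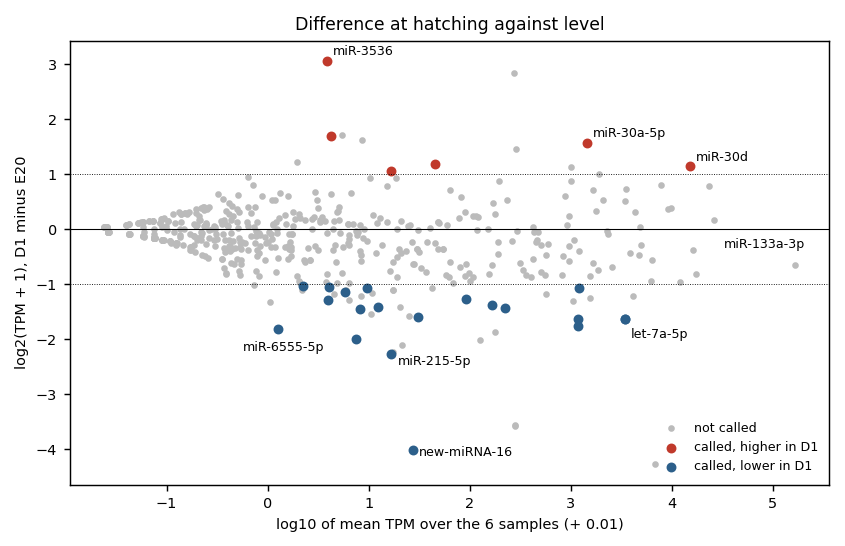
Difference between D1 and E20 (log2 of TPM + 1) of the 513 miRNAs against their mean level over the 6 samples (log10 of TPM + 0.01), with dotted lines at 2-fold. The 6 red points were called higher in D1 and the 20 blue points lower, and gga-miR-30d at the right is the most abundant called miRNA, while the most abundant of all, gga-miR-133a-3p, was not called.

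The 2 miRNAs that passed at an adjusted p were of low level and were each listed at 0 throughout 1 of the stages. gga-miR-3536 had 8.17, 4.34 and 10.8 TPM in D1, against 0 in each E20 sample. If each 0 stands for fewer than 3 reads, that is at least 26.2-fold higher in D1 (limma adjusted p = 0.0267). Whether a listed 0 is a true absence was not tested, and at E15 it was listed at 0 in 2 samples beside 3.63 TPM in the other. gga-miR-3536 was also listed at 0 in all 3 samples at D36, and it averaged 16.9 ± 4.23 TPM (E9), 6.67 ± 2.89 TPM (E12), 1.21 ± 2.10 TPM (E15) and 1.03 ± 1.29 TPM (E18) in the embryo (SD, n = 3 each). It was thus above 0 in all samples of E9, E12 and D1 and listed at 0 in all samples of E20 and D36. gga-miR-6555-5p was listed at 0 in each D1 sample, against 2.94, 2.62 and 2.05 TPM in E20. On the same reading of 0 it was at least 9.22-fold lower in D1 (limma adjusted p = 0.0224). It had averaged 5.99 ± 2.50 TPM at E9 and 2.74 ± 1.44 TPM at E18 (SD, n = 3 each), and it was listed at 0 in all 3 samples at D36. At an adjusted p the number of calls was 0 after centring, with the mean-dependent prior, and without D1-3, E20-1, E20-2 or E20-3, so that in these fits neither passed.

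Most of the miRNAs by level came from a few families, and of the 10 most abundant, 1 was called. gga-miR-30d, a 5p arm of the miR-30 family, had 11918, 26553 and 24603 TPM in D1, against 7848, 11859 and 7798 TPM in E20. All D1 samples lay above all E20 samples, though D1-1 was only just above E20-2. It rose by 1.14 (SE 0.38, limma adjusted p = 0.453), and it was not called without D1-2, D1-3, E20-1 or E20-3. Of the other abundant miRNAs, gga-miR-26a-5p, which in mice promotes myoblast differentiation, had 19046, 44280 and 26717 TPM in D1, against 14851, 17212 and 17178 TPM in E20. Its groups did not overlap, and its difference of 0.79 (SE 0.33, limma adjusted p = 0.547) was not called. Without D1-1 it was 1.07 and called. gga-miR-10a-5p, which lies in a Hox gene cluster and follows body position, had 6900, 12062 and 10939 TPM in D1, against 5776, 6510 and 4505 TPM in E20. These did not overlap either, but the difference of 0.81 (SE 0.28, limma adjusted p = 0.471) stayed under 2-fold. Without D1-1 it was 1.05 and called. gga-miR-181a-5p, which in mice is raised during myoblast differentiation, had 12214, 14952 and 10536 TPM in D1, against 18885, 27097 and 20608 TPM in E20. All D1 samples were lower, and the difference of −0.82 (SE 0.22, limma adjusted p = 0.292) was also under 2-fold. The differences of gga-miR-125b-5p (0.17), gga-miR-92-3p (−0.38), gga-miR-199-3p (−0.96), gga-miR-10b-5p (0.38) and gga-miR-30c-5p (0.37) came with overlapping samples and were not called.

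Of the 12 tested myomiR rows, 0 were called, against 5.07% of all miRNAs, and gga-miR-133a-3p made up most of their sum. Of the 8 with a mean of at least 10 TPM, 7 were below 0, as were 105 of all 158 miRNAs at that level. Their median difference was −0.56, against −0.37 for all miRNAs at that level. gga-miR-133a-3p, which in mice represses SRF and holds back differentiation of myoblasts, was the most abundant miRNA in every sample, with 96781, 180128 and 117220 TPM in D1 against 183319, 223742 and 190628 TPM in E20. The groups did not overlap, but D1-2 lay just under the lowest E20 sample, and the difference of −0.65 (SE 0.27, limma adjusted p = 0.547) was not called. As a share of the summed listed miRNAs it took 32.9, 34.1 and 36.4% in D1, against 45.3, 42.2 and 46.6% in E20. The mean share was 34.5 ± 1.82% in D1 and 44.7 ± 2.23% in E20 (SD, n = 3 each, exact permutation p = 0.1, the smallest possible). Its spread between samples of a stage was smaller on this scale than on the TPM scale. The level was 82107 ± 12401 TPM at E15 and 155879 ± 18126 at E18, and stood at 320742 ± 25433 TPM at D36 (SD, n = 3 each), so that the D1 mean of 131376 ± 43440 TPM was below those of E18, E20 and D36.

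gga-miR-206, a skeletal muscle miRNA of myoblasts and regenerating fibres whose hairpin neighbours that of miR-133b in RefSeq (GRCg7b), had 29.7, 147 and 56.1 TPM in D1, against 119, 216 and 492 TPM in E20. D1-2 fell among the E20 values, and the difference of −1.87 (SE 0.76, limma adjusted p = 0.547) missed the threshold at an unadjusted limma p of 0.0522. In 10 of 19 alternative settings gga-miR-206 was called. gga-miR-133b had 291, 385 and 502 TPM in D1, against 840, 954 and 394 TPM in E20, with overlap at E20-3 (−0.83, limma adjusted p = 0.629). gga-miR-499-3p, from an intron of a slow myosin gene in mammals, had 65.5, 114 and 44.9 TPM in D1, against 115, 124 and 126 TPM in E20. The groups met without overlapping, and the difference was −0.80 (limma adjusted p = 0.588), while the other arm, gga-miR-499-5p, had overlapping samples (−0.48, limma adjusted p = 0.772). gga-miR-1a-3p, which promotes differentiation in mice, had 81.2, 288 and 130 TPM in D1, against 129, 166 and 363 TPM in E20, with overlap (−0.45, limma adjusted p = 0.778). Its level was far below that of gga-miR-133a-3p, although both are known to be abundant in muscle.

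The miR-30 family gave 2 of the 6 rises, both of 5p arms. All 5 of its 5p arms had a mean of at least 10 TPM and were above 0 (median 1.00). Of all 158 miRNAs at that level, 53 were above 0. Among the 5 arms, 2 were called, against 1.17% of all miRNAs called higher and 10.1% of the 158 called in either direction. gga-miR-30a-5p had 1257, 2698 and 2585 TPM in D1, against 667, 812 and 611 TPM in E20. Every D1 sample was above every E20 sample, with D1-1 the lowest of D1. It rose by 1.57 (SE 0.34, 2.98-fold, limma adjusted p = 0.214), and by 1.93 without D1-1. gga-miR-30e-5p had 1305, 3043 and 3498 TPM in D1, against 1055, 1500 and 1090 TPM in E20. D1-1 lay below E20-2, and the difference of 1.00 (SE 0.42, limma adjusted p = 0.547) was not called, but it was 1.44 and called without D1-1. gga-miR-30b-5p (0.53, limma adjusted p = 0.752) and gga-miR-30c-5p (0.37, limma adjusted p = 0.772) were above 0 with overlapping samples. The number of 5p arms called was 3 without D1-1 and 1 or 2 without any other sample, and all 5 stayed above 0 each time.

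The 3p arms of the same family lay on the other side. All 5 were below 0 (median −0.78), as were 322 of all 513 miRNAs, and 0 were called. At a mean of at least 10 TPM their median was −0.81, against −0.37 for all miRNAs at that level. gga-miR-30a-3p had 189, 493 and 219 TPM in D1, against 433, 612 and 473 TPM in E20, a difference of −0.87 (SE 0.41, limma adjusted p = 0.592). gga-miR-30e-3p had 272, 624 and 282 TPM in D1, against 596, 684 and 593 TPM in E20 (−0.78, SE 0.36, limma adjusted p = 0.592). In both, D1-1 and D1-3 were below all E20 samples and D1-2 was among them. gga-miR-30c-1-3p (−0.84, limma adjusted p = 0.697) and gga-miR-30c-2-3p (−0.66, limma adjusted p = 0.765) were likewise below 0 with overlap. The hairpins of miR-30d and miR-30b neighbour each other in RefSeq, as do those of miR-30e and miR-30c-1, while miR-30a has no miRNA neighbour within 10 kb.

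The let-7 family went the other way, again on the 5p side. All 7 of its listed 5p arms had a mean of at least 10 TPM and were below 0 (median −1.30). For let-7b and let-7d, which have hairpins in RefSeq, no 5p arm was listed. Of all 158 miRNAs at that level, 105 were below 0, and their median was −0.37. Among the 7 arms, 4 were called, 2 of which have identical rows. This stands against 3.9% of all miRNAs called lower and 10.1% of the 158 called in either direction. gga-let-7a-5p had 796, 3923 and 1158 TPM in D1, against 3590, 5920 and 5084 TPM in E20. The row of gga-let-7j-5p holds the same values, so that these count as 1 measurement. D1-1 and D1-3 were below every E20 sample and D1-2 was not, and it fell by 1.63 (SE 0.63, limma adjusted p = 0.545). gga-let-7c-5p had 323, 1207 and 309 TPM in D1, against 1165, 2322 and 1778 TPM in E20, and fell by 1.77 (SE 0.61, limma adjusted p = 0.471). gga-let-7g-5p had 456, 1346 and 663 TPM in D1, against 1302, 1840 and 1591 TPM in E20, and fell by 1.07 (SE 0.43, limma adjusted p = 0.547). In each of these the D1-2 value lay within the E20 range. The listed miRNAs together took 52.9% of the D1-2 library, against 29.5% of D1-1 and 32.2% of D1-3. In E20 they took 40.5, 53.0 and 40.9%. After centring on the median miRNA, gga-let-7a-5p (−1.38) and gga-let-7c-5p (−1.52) were called and gga-let-7g-5p (−0.82) was not. The part of the library scale in the D1-2 values was not tested. gga-let-7f-5p (−0.95, limma adjusted p = 0.671), gga-let-7i (−0.85, limma adjusted p = 0.629) and gga-let-7k-5p (−1.30, limma adjusted p = 0.629) were not called.

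The let-7 calls depended on single libraries. Without D1-2 all 7 of the 5p arms were called. Without D1-1, D1-3, E20-2 or E20-3, 0 of the 7 were called at medians of −0.82 to −1.46, and without E20-1, 1 was called. All 7 stayed below 0 in each of these fits. The let-7 3p arms, 7 tested, had a median of 0.08 with 0 called, and gga-let-7a-3p had 35.7, 64.6 and 53.6 TPM in D1, against 42.2, 55.0 and 39.9 TPM in E20. The row of gga-let-7k-3p holds these values as well. On this side the stages overlapped.

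**Figure D3:**
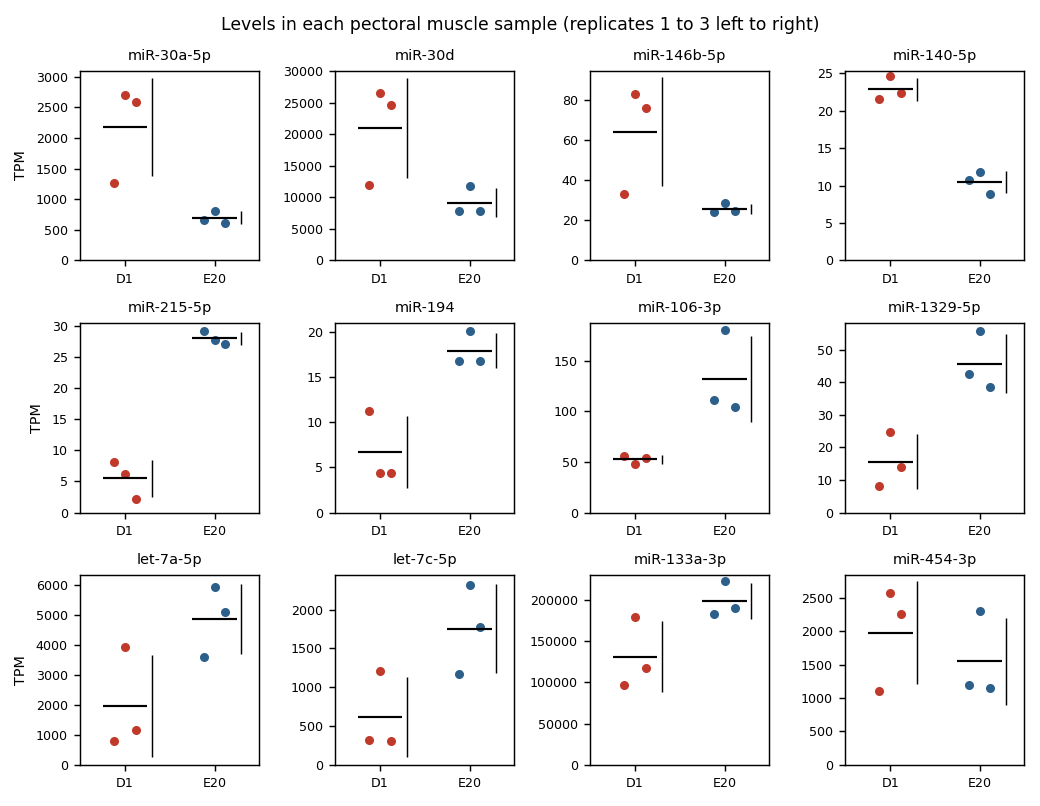
TPM of 12 miRNAs in each D1 sample (left) and each E20 sample (right), with a bar at the mean and a vertical line from 1 SD below it to 1 SD above it (n = 3). gga-miR-30a-5p, gga-miR-30d, gga-miR-146b-5p and gga-miR-140-5p lie higher in all D1 samples and gga-miR-215-5p, gga-miR-194, gga-miR-106-3p and gga-miR-1329-5p lower, while gga-let-7a-5p, gga-let-7c-5p and gga-miR-454-3p overlap because of 1 or more samples.

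The ratio of both arms of a hairpin is free of the library total, and it was compared for the 26 hairpins with both arms at a mean of at least 10 TPM. Arms were paired by name. Some names, among them let-7a, miR-133a, miR-181a, miR-199, miR-9 and miR-92, have more than 1 precursor in RefSeq. In their ratios, arm use and the share of each precursor cannot be told apart. The log2 ratio of 5p over 3p was called for 9 of the 26 hairpins (34.6%), 4 higher and 5 lower in D1. At an adjusted p of at most 0.05, 1 passed (3.85%). These are not counts of separate measurements, since let-7a shares its 5p values with let-7j and its 3p values with let-7k. Both arms of miR-130b were listed at 0 in 5 samples, and its ratio, though among the 26, was not taken as a result. For 14 of the 26 the samples did not overlap (53.8%). The ratio of miR-30a was 2.73, 2.45 and 3.56 in D1, against 0.62, 0.41 and 0.37 in E20. All D1 samples were far above all E20 samples, and the ratio rose by 2.45 (SE 0.32, limma adjusted p = 0.00947). That of miR-30e was 2.26, 2.29 and 3.63 in D1, against 0.82, 1.13 and 0.88 in E20, and rose by 1.78 (SE 0.41, limma adjusted p = 0.0507). The rises of miR-30a and miR-30e were called in all 8 alternatives, with ranges of 2.12 to 2.68 and 1.33 to 2.01. At an adjusted p, 0 ratios passed with the replicate number as a block and without E20-1, E20-2 or E20-3, and the adjusted p of miR-30a reached 0.0964. With a pseudocount of 0.1, 1 ratio passed. The number that passed was 6 without D1-1, 8 without D1-2 and 2 without D1-3.

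The ratio of let-7a was 4.44, 5.90 and 4.41 in D1, against 6.38, 6.72 and 6.96 in E20. Unlike the 5p level, the ratio did not overlap, and it fell by 1.77 (SE 0.46, limma adjusted p = 0.0507). It was called in all 8 alternatives (−2.26 to −1.52). The name let-7a covers more than 1 precursor, and gga-let-7a-2-3p, which has its own row, was not part of this ratio. The ratio of let-7c was 4.09, 6.47 and 5.43 in D1, against 6.99, 7.35 and 7.76 in E20, and fell by 2.04 (SE 0.63, limma adjusted p = 0.0507). It was called in 6 of the 8 alternatives (−2.61 to −1.41). Those of let-7k (−1.44, limma adjusted p = 0.0519) and let-7j (−1.20, limma adjusted p = 0.0519) fell as well, though each shares an arm's values with let-7a and they were called in 4 of the 8 alternatives. Without D1-1 the let-7k and let-7j ratios were not called (−1.19 and −0.86).

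The other called ratios belonged to 3 hairpins. That of miR-126, an endothelial hairpin of which both arms are used, fell by 1.28 (SE 0.39, limma adjusted p = 0.0507), with −0.13, −0.70 and −1.58 in D1 against 0.50, 0.28 and 0.65 in E20. It was called in 5 of the 8 alternatives (−1.62 to −0.89). The stages lay on opposite sides of an equal use of the arms, since gga-miR-126-5p had 1204, 2455 and 798 TPM in D1 against 2370, 2013 and 2340 TPM in E20, and gga-miR-126-3p had 1316, 4001 and 2389 TPM in D1 against 1672, 1658 and 1493 TPM in E20. The ratio of miR-106 rose by 1.25 (SE 0.36, limma adjusted p = 0.0507), with 0.42, 1.78 and 1.11 in D1 against −0.19, −0.16 and −0.09 in E20, and was called in 6 of the 8 alternatives (0.91 to 1.59). That of miR-221 rose by 1.07 (SE 0.27, limma adjusted p = 0.0507), was called in 6 of the 8 alternatives, and was not called without D1-1 (0.98). Its 5p arm, gga-miR-221-5p, was not called (0.79), but was called without D1-1 (1.02). The ratio of miR-133a was 0.69 higher in D1 and not called (limma adjusted p = 0.122), but it was called without D1-1. It was −8.93, −7.95 and −7.99 in D1, against −8.93, −8.97 and −9.04 in E20, with the overlap at D1-1.

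**Figure D4:**
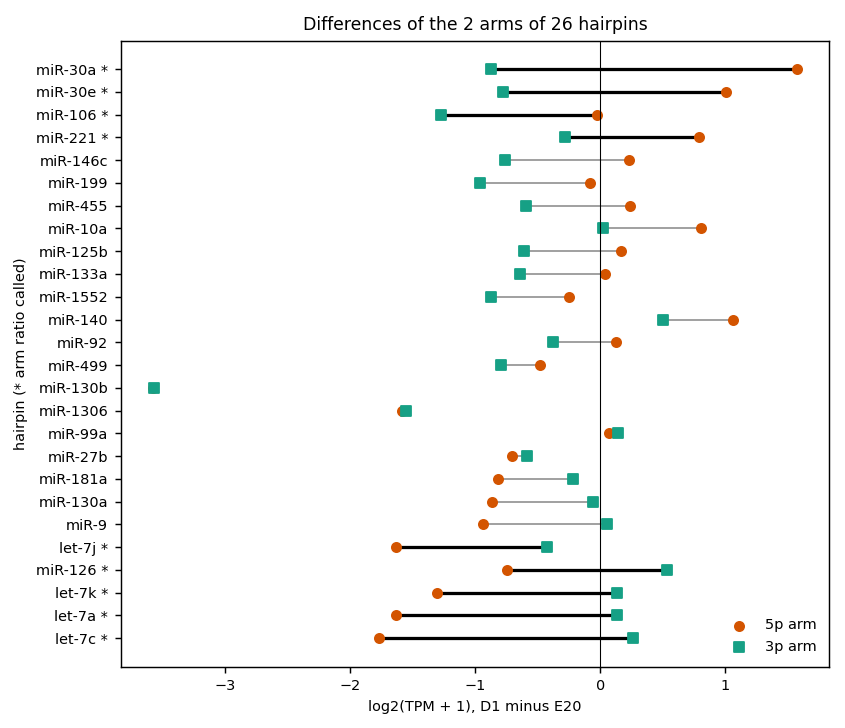
Difference between D1 and E20 (log2 of TPM + 1) of the 5p arm (circles) and the 3p arm (squares) of 26 hairpins, ordered by the difference of their ratio, with called ratios in black and starred. miR-30a and miR-30e have their 5p arms at 1.57 and 1.00 and their 3p arms below 0, and the 4 let-7 hairpins have their 5p arms below −1 and their 3p arms between −0.43 and 0.26.

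Set among the other stages, the arm ratio of miR-30a was not steady before hatching either. It averaged 3.19 ± 0.34 (E9), 0.62 ± 0.19 (E12), 0.66 ± 0.14 (E15), 1.12 ± 0.61 (E18) and 0.47 ± 0.14 (E20) in the embryo, and 2.91 ± 0.57 at D1 and 5.37 ± 0.18 at D36 (SD, n = 3 each), and 4.67 to 4.96 from D100 to Y12. That of miR-30e followed a like order, with 3.13 ± 0.39 at E9, 0.94 ± 0.17 at E20, 2.72 ± 0.78 at D1 and 5.98 ± 0.12 at D36. D1 thus lay between the low values of E12 to E20 and the high values of the grown birds. The ratio of let-7a was 6.39 ± 0.10 at E15, 7.03 ± 0.25 at E18, 6.69 ± 0.29 at E20, 4.92 ± 0.85 at D1, 5.34 ± 0.62 at D36 and 6.78 ± 0.19 at D300 (SD, n = 3 each). Its mean at D1 was the lowest of the 13 muscle stages, close to the 4.96 ± 0.18 at E9.

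Among the other rises, 2 were of marker lists. gga-miR-146b-5p, of a family that dampens innate immune signalling, had 33.1, 82.9 and 76.0 TPM in D1, against 24.0, 28.5 and 24.6 TPM in E20. All D1 samples were above all E20 samples, and it rose by 1.18 (SE 0.38, limma adjusted p = 0.428) and by 1.59 without D1-1. It was not called without D1-2, D1-3, E20-1 or E20-3. Of 9 leukocyte miRNAs it was the only 1 called, against 5.07% of all miRNAs, and the list summed to 882, 2218 and 1269 TPM in D1, against 1236, 1114 and 962 TPM in E20. These sums overlapped, and gga-miR-146b-5p was a small part of them.

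gga-miR-140-5p, of a hairpin known from cartilage, had 21.6, 24.6 and 22.4 TPM in D1, against 10.7, 11.9 and 8.90 TPM in E20. Its replicates were close within each of these 2 stages and did not overlap, and it rose by 1.06 (SE 0.17, limma adjusted p = 0.118). Its mean of 22.9 ± 1.54 TPM at D1 was near the 22.8 ± 10.5 TPM of E18. It averaged 31.9 ± 16.3 TPM at E15 and 92.3 ± 12.1 TPM at D36, with 10.5 ± 1.49 TPM at E20 (SD, n = 3 each). The more abundant gga-miR-140-3p had 5670, 4370 and 2415 TPM in D1, against 2707, 3353 and 2312 TPM in E20, with overlap (0.50, limma adjusted p = 0.765). gga-miR-140-5p was the only 1 of 4 cartilage miRNAs called, against 5.07% of all miRNAs, and was not called without E20-3. The list summed to 2518 to 5968 TPM in D1 and 2478 to 3539 TPM in E20. gga-miR-365-2-5p, at 6.05, 10.6 and 4.14 TPM in D1 against 0.405, 2.33 and 1.66 TPM in E20, also rose (1.69, limma adjusted p = 0.279). Its E20-1 value lay near the 0.304 TPM to which 3 reads correspond in that library, and gga-miR-365-3p was not called.

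Among the falls with no overlap was that of gga-miR-215-5p, which is enriched in gut, liver and kidney of mammals. It had 8.07, 6.21 and 2.26 TPM in D1, against 29.2, 27.7 and 27.2 TPM in E20, and fell by 2.28 (SE 0.40, limma adjusted p = 0.12). Its neighbour in RefSeq, gga-miR-194, had 11.2, 4.34 and 4.42 TPM in D1, against 16.8, 20.1 and 16.7 TPM in E20, and fell by 1.41 (SE 0.37, limma adjusted p = 0.279). The E20 samples were close together in both, and every D1 sample was lower. Low values of gga-miR-215-5p were not confined to D1, since in rising order the E18 samples had 3.81, 5.00 and 57.2 TPM. Its mean at D36 was 51.8 ± 31.3 TPM (SD, n = 3). For gga-miR-194 the E18 samples had 5.10, 15.7 and 17.2 TPM in rising order. gga-miR-122-5p, the liver miRNA, had 103, 30.5 and 19.6 TPM in D1, against 55.7, 128 and 70.5 TPM in E20, and was not called (−0.98), but was called without D1-1 (−1.66). The 5 miRNAs of the liver and kidney list summed to 123, 41.9 and 26.2 TPM in D1, against 102, 176 and 114 TPM in E20. In the adult tissues of the series the same list summed to 6592 to 7675 TPM in liver. Its sum was only 39.6 to 96.2 TPM in kidney, beside 54.3 to 71.9 TPM in brain, so that here it did not mark kidney. The levels in this muscle were low and the part of other tissue in them was not tested.

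gga-miR-375, known from endocrine cells in mammals, had 7.97, 1.53 and 0.376 TPM in D1, against 9.11, 15.4 and 10.9 TPM in E20, and fell by 1.99 (SE 0.71, limma adjusted p = 0.488). D1-1 was the highest D1 sample and close to the lowest of E20. In rising order the E18 samples of gga-miR-375 had 1.73, 3.14 and 25.8 TPM, so that low values were present before E20 as well. Of the 6 fits with 1 sample left out, it was called in 1, that without D1-1 (−2.75). gga-miR-106-3p, the less studied arm of a hairpin in the cluster with miR-18b, miR-20b, miR-19b-2, miR-92-2 and miR-363, had 55.6, 47.6 and 54.2 TPM in D1, against 111, 181 and 104 TPM in E20. It fell by 1.27 (SE 0.25, limma adjusted p = 0.192) with close D1 values and no overlap. The other arm, gga-miR-106-5p, had 74.6, 167 and 118 TPM in D1, against 97.6, 161 and 97.7 TPM in E20, with overlap (−0.02, limma adjusted p = 0.983, and 0.23 under centring). gga-miR-106-3p was the only 1 of 16 tested members of the proliferation clusters to be called, a share near the 5.07% of all miRNAs.

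The remaining falls were of miRNAs with less known about them. gga-miR-1329-5p had 8.07, 24.7 and 14.1 TPM in D1, against 42.7, 55.9 and 38.5 TPM in E20, and fell by 1.60 (SE 0.41, limma adjusted p = 0.279). gga-miR-1786 had 2.98, 7.06 and 2.16 TPM in D1, against 14.6, 14.4 and 7.72 TPM in E20, and fell by 1.46 (limma adjusted p = 0.371). It was not called without D1-1 (−1.34), E20-1 or E20-2. gga-miR-458a-3p had 7.11, 6.80 and 3.76 TPM in D1, against 13.1, 11.4 and 15.0 TPM in E20, and fell by 1.07 (limma adjusted p = 0.279). None of these 3 had overlapping samples. The predicted new-gga-miRNA-9 had 63.6, 204 and 118 TPM in D1, against 265, 351 and 334 TPM in E20, and fell by 1.44 (limma adjusted p = 0.378). gga-miR-1416-5p had 452, 1146 and 289 TPM in D1, against 1975, 2113 and 1068 TPM in E20, and fell by 1.63 (limma adjusted p = 0.488) with D1-2 just above E20-3. It was called without D1-2 or E20-3, but not without D1-1 (−1.51), D1-3, E20-1 or E20-2. The predicted new-gga-miRNA-7 had 56.7, 168 and 64.7 TPM in D1, against 146, 302 and 256 TPM in E20, and fell by 1.39 (limma adjusted p = 0.507), with D1-2 above E20-1. It was not called without D1-1 (−1.10), D1-3, E20-2 or E20-3.

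The last 4 falls were of miRNAs under 10 TPM on average, and none of them had overlapping samples. gga-miR-1736-3p had 2.31, 2.47 and 1.03 TPM in D1, against 7.09, 6.22 and 4.79 TPM in E20, and fell by 1.29 (limma adjusted p = 0.203). gga-miR-6660-3p had 2.98, 3.91 and 2.54 TPM in D1, against 7.29, 12.9 and 5.38 TPM in E20, and fell by 1.14 (limma adjusted p = 0.36). Both were higher again at D36, at 5.32 ± 1.33 TPM for gga-miR-1736-3p and 7.66 ± 2.48 TPM for gga-miR-6660-3p (SD, n = 3 each). gga-miR-6582-3p had 1.25, 1.11 and 0.94 TPM in D1, against 2.63, 3.69 and 3.71 TPM in E20, and fell by 1.04 (limma adjusted p = 0.12). The predicted new-gga-miRNA-32 had 2.50, 2.47 and 1.88 TPM in D1, against 5.87, 5.64 and 5.87 TPM in E20, and fell by 1.05 (limma adjusted p = 0.102). Its values were close within each stage, at 20 to 29 reads a library in D1 and 58 to 60 in E20.

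Some rows were listed at 0 in a sample and high in its replicates. new-gga-miRNA-16 had 20.4 TPM in D1-1 and was listed at 0 in D1-2 and D1-3, against 45.0, 25.7 and 73.1 TPM in E20, and it was called (−4.02, limma adjusted p = 0.435), but it was also listed at 0 in 2 of the 3 samples at E15 and at E18. gga-miR-130b-3p was listed at 0 in all D1 samples and in 2 E20 samples, with 1667 TPM in E20-2, and gga-miR-130b-5p stood likewise at 1692 TPM in E20-2. new-gga-miRNA-1 was listed at 0 in D1-1 and at 15005 and 3817 TPM in D1-2 and D1-3, against 7454, 7659 and 7323 TPM in E20, and the value 0 stood for gga-miR-21-5p in D1-1, E20-1 and E20-3, beside 559 and 429 TPM in the other D1 samples and 652 TPM in E20-2. In such rows 0 may stand for a failed estimate, and the fitted differences of new-gga-miRNA-1, gga-miR-130b and gga-miR-21-5p were not taken as results. These were not among the called miRNAs, whereas new-gga-miRNA-16, a row of the same kind, remains counted among the 26 called and the 20 lower.

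The other lists held 0 or 1 called members each, against 5.07% of all miRNAs. Of the mesenchymal miRNAs, gga-miR-214 had 3510, 3756 and 911 TPM in D1, against 3819, 7644 and 5192 TPM in E20 (−1.22, limma adjusted p = 0.629), and 0 of the 3 tested were called. Of the miRNAs tied to the Hox clusters, gga-miR-196-5p had 388, 1559 and 1055 TPM in D1, against 1827, 2644 and 1824 TPM in E20. Its groups did not overlap, and the difference was −1.26 (SE 0.54, limma adjusted p = 0.571), opposite in sign to that of gga-miR-10a-5p. Of the 12 tested miRNAs set down for energy metabolism, 1 was called, gga-miR-365-2-5p, and gga-miR-193b-3p had 76.9, 79.9 and 66.6 TPM in D1, against 104, 151 and 163 TPM in E20 (−0.88, SE 0.22, limma adjusted p = 0.279, under 2-fold). gga-miR-454-3p, the miRNA that the study followed into myoblasts, had 1107, 2569 and 2256 TPM in D1, against 1198, 2304 and 1153 TPM in E20, with overlap and a difference of 0.34 (limma adjusted p = 0.778). In 0 of the 5 tested miR-181, 5 miR-221, 6 miR-23 cluster, 6 miR-99, 7 miR-29 and 10 miR-15 and miR-16 members was a call made.

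Hatching was set beside the embryonic step from E15 to E18, with which it shares no sample. Between E18 and E15, 31 of 603 miRNAs were called (5.14%), with 6 higher and 25 lower in E18. Between E20 and E18, 13 of 576 were called (2.26%), all lower in E20, and between D36 and D1, 167 of 512 were called (32.6%), of which 118 were higher in D36 and 140 passed at an adjusted p. The test of the difference, the change at hatching minus the change from E15 to E18, called 41 of 647 miRNAs (6.34%), with 57 at an unadjusted limma p of at most 0.05 and 0 at an adjusted p (0%). Leaving out D1-2 gave 59 calls, 18 of them at an adjusted p.

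The test contains the D1 minus E20 difference itself, so that it is no second measurement of it. Of the 26 miRNAs called at hatching, 11 were called in it. Among these were gga-miR-30a-5p (difference of changes 1.74, SE 0.47, limma adjusted p = 0.312), gga-let-7a-5p (−2.17, SE 0.71, limma adjusted p = 0.398), gga-miR-1329-5p (−1.78, SE 0.49, limma adjusted p = 0.323), new-gga-miRNA-9 (−2.12, SE 0.55, limma adjusted p = 0.299) and gga-miR-140-5p (1.49, SE 0.58, limma adjusted p = 0.436). gga-miR-133a-3p, not called at hatching, was called in it (−1.57), with a higher mean in E18 than in E15. gga-miR-215-5p (−0.11), gga-miR-194 (0.14) and gga-miR-458a-3p (−0.06) had lower levels at both steps, and these differences of changes were not called. For gga-miR-215-5p the SE was 1.26.

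gga-miR-30a-5p averaged 1387 ± 454 TPM at E15, 1209 ± 235 at E18, 697 ± 104 at E20, 2180 ± 802 at D1 and 14059 ± 2886 at D36 (SD, n = 3 each). It was thus at its lowest at E20 and 2.75 higher in D36 than in D1 on the log2 scale. gga-miR-146b-5p averaged 25.7 ± 2.42 TPM at E20, 64.0 ± 27.0 at D1 and 856 ± 348 at D36. gga-miR-30d averaged 9168 ± 2330 TPM at E20, 21024 ± 7946 at D1 and 19557 ± 3888 at D36, and the samples of D1 and D36 overlapped. gga-let-7a-5p averaged 7918 ± 1107 TPM at E18, 4865 ± 1180 at E20, 1959 ± 1710 at D1 and 4764 ± 1836 at D36, and D1 was its lowest mean of the 13 muscle stages. gga-miR-106-3p had a lower mean at each stage in turn, with 314 ± 50.2 TPM at E15, 193 ± 31.0 at E18, 132 ± 42.3 at E20, 52.5 ± 4.26 at D1 and 38.3 ± 5.77 at D36.

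**Figure D5:**
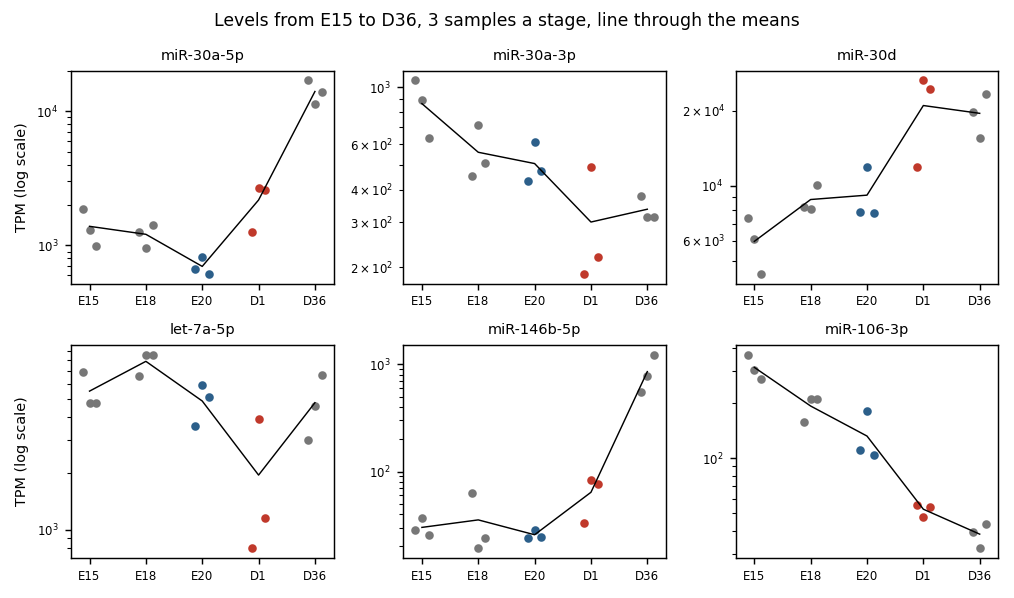
TPM (log scale) of 6 miRNAs in the 3 samples of each of E15, E18, E20, D1 and D36, with a line through the means. gga-miR-30a-5p is lowest at E20 and highest at D36, gga-miR-30a-3p and gga-miR-106-3p are lower at D1 than at E15, and gga-let-7a-5p has its lowest mean at D1, where D1-2 lies above the other samples of that stage.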

How the data were processed

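Small RNA of 3 D1 and 3 E20 samples of pectoral muscle was compared, and E15, E18 and D36 samples served for the neighbouring steps. Per the labels and the methods of the study, the authors trimmed the reads with Cutadapt, kept those of 18 to 30 nt, removed other small RNAs with Bowtie, and assigned the rest to miRBase and to predicted miRNAs. The genome build is not given in the sources used here. The deposited values, called TPM, are RPM values that the authors scaled to a library total, since 100% of the values of the 6 samples are whole multiples of 1 step (within 0.1 of a step). Whole reads were recovered from these steps, 9878278 to 11757924 a library, and used for edgeR and DESeq2 as alternatives. The tests were planned for TPM and were kept, because RPM values suit them equally. edgeR's quasi-likelihood test on these reads called 32 miRNAs. 1 unnamed column was not used.

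limma was run on log2(TPM + 1), and adjusted p-values (Benjamini-Hochberg) cover all miRNAs tested. Exact permutation tests (two-sided) served for totals, shares and detected numbers. Arm ratios were compared with limma on log2((5p + 1)/(3p + 1)), with the arms paired by name. Named were up to 10 called rises and 10 called falls with at least 10 TPM in the higher stage and no overlap, the 10 most abundant miRNAs, members of lists of cell type markers and families, and gga-miR-454-3p. Others, such as gga-miR-3536, gga-miR-6555-5p, gga-miR-1416-5p and new-gga-miRNA-1, were added with their values in view. The comparison and the lists were chosen with earlier results of these data known. Neighbouring hairpins were taken within 10 kb from RefSeq (GRCg7b), which matched 403 of the 410 known miRNAs tested. Floors cover counting error only, and reads without molecular identifiers are not independent molecules. Replicates differed by more than sampling noise, so each was counted. The scripts were tested on simulated data. R 4.3.3, limma 3.58.1, edgeR 4.0.16, DESeq2 1.42.0, Python 3.11.15, pandas 2.3.3 and Matplotlib 3.10.9 were used.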

Additional observations from a re-analysis of the deposited data

How the results depend on the processing

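With 3 samples a stage, 26 calls at an unadjusted p and 2 at an adjusted p, most results rest on small groups. The count of calls was 2 at an adjusted p, 17 without moderation of the variance, 43 with all 13 muscle stages in 1 fit, 45 after rescaling without gga-miR-133a-3p (9 higher, 36 lower), and 15 to 49 when 1 sample was left out. It was 32 with a pseudocount of 0.1, 27 at a mean of at least 1 TPM, 30 after centring (15 higher, 15 lower), 36 after rescaling over the listed miRNAs (15 higher, 21 lower), 26 on untransformed TPM, 26 with a mean-dependent prior, 32 with edgeR (17 higher, 15 lower) and 39 with DESeq2 (21 higher, 18 lower). Of these, 0 passed at an adjusted p with edgeR and 7 with DESeq2. At an adjusted p, 21 passed with all 13 stages in 1 fit, 5 without D1-1 and 1 without D1-2. With the replicate number as a block, 34 were called, with the 26 among them and 0 at an adjusted p. Deviations of same-numbered samples correlated at r = −0.13, 0.19 and −0.45 over 158 miRNAs, against at most 0.31, 0.056 and 0.36 for other numbers. With 3 samples a stage, this cannot tell whether the number stands for a shared origin. Arm ratio calls ranged over 5 to 10 and those of the difference of changes over 33 to 59 when 1 sample was left out. The D1 minus E20 difference of the summed listed level was −139925 to −22860 TPM when 1 sample was left out, and 1446 TPM without gga-miR-133a-3p (exact permutation p = 1). That of detected miRNAs was −46.2 to −9.17, and that of the gga-miR-133a-3p share −11.5 to −9.30 percentage points. Of 492 results of the 26 called miRNAs under the alternatives, 361 kept the call, 131 lost it and 0 changed sign. Among the 37 other named miRNAs, 56 results gained a call and 13 changed sign. On untransformed TPM, no ratio could be given for miRNAs with a stage at 0. The cause was not tested.

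The changes of sign were as follows. gga-miR-106-5p was at 0.23 after centring, 0.25 and 0.0015 after rescaling with and without gga-miR-133a-3p, 0.010 on untransformed TPM, 0.33 with edgeR and 0.37 with DESeq2, and at −0.30 (without D1-2) to 0.28 (without D1-1) when 1 sample was left out, with 0.22 without E20-2. With 1 sample left out, gga-let-7a-3p lay at −0.046 (without D1-2) to 0.37, gga-miR-125b-5p at −0.087 (without D1-2) to 0.38, gga-miR-92-3p at −0.68 to 0.16 (without D1-3) and gga-miR-205a at −0.49 (without D1-1) to 2.36. The fitted value of new-gga-miRNA-1, which rests on the 0 listed in D1-1 and was not taken as a result, lay at −6.92 to 0.017 (without D1-1).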
